A study of Homo sapiens with 10 samples.

Results

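Homologous recombination and DNA damage response genes were compared across 5 human prostate cancer cell lines. The group holds 39 genes named for their roles in this pathway, of the 60642 gene symbols with deposited values, and all 39 had at least 1 TPM in at least 2 samples. TPM is a gene's share of a sample's transcripts, corrected for length and scaled to a fixed total. The cells were DU145, PC3, LNCaP, VCAP and DUCAP, all of them untreated and grown in phenol-red-free RPMI medium with fetal bovine serum until harvest in exponential growth. Each line had 2 biological repeats, giving 10 bulk RNA-seq samples of polyA-enriched RNA, and each line is a single established model, so the tests extend to these 5 lines only.

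A double-strand break is first sensed by the MRE11-RAD50-NBN complex and by the kinases ATM and ATR, which mark the chromatin around it and signal through CHEK1 and CHEK2. In homologous recombination the ends are cut back and BRCA1, BARD1, PALB2 and BRCA2 load a recombinase that copies the sister chromatid, whereas DNA-dependent protein kinase and LIG4 join ends directly. The Fanconi anemia proteins use the same machinery to repair crosslinked DNA, and loss of recombination genes in prostate cancer is known for its link to the use of PARP inhibitors.

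The column sums lay between 982880 and 991998 TPM, and the number of reads behind a value is unknown. Mitochondrial transcripts held 32.1 to 36.0% of the TPM in DUCAP and VCAP and 12.7 to 22.5% in the other lines. All 12 luminal prostate markers were at 1 TPM or more in LNCaP, DUCAP and VCAP. By contrast, 6 of 12 in DU145 and 3 of 12 in PC3 were below 1 TPM in both repeats. Of the others, KRT8 (682 and 858 TPM) and KRT18 (916 and 1077 TPM) were highest in DU145, and HOXB13 (328 and 502 TPM) in PC3. ERG, the ETS factor of rearranged lines, was at 122 to 199 TPM in DUCAP and VCAP and at most 0.19 TPM elsewhere. Of 4 markers of other cell types, the leukocyte marker PTPRC was at most 0.12 TPM and PECAM1 at most 0.43 TPM. COL1A1 was at 31.5 and 38.02 TPM in PC3 and at most 6.66 TPM elsewhere. COL3A1 was at 3.61 and 8.45 TPM in PC3 and at most 0.6 TPM elsewhere. The repeats of DU145 stood apart. The 24 genes of a proliferation list summed to 1463 TPM in repeat 1 and 3549 TPM in repeat 2. Counts of calls for DU145 against the other lines and against PC3 are given with and without each of these repeats. Steps between neighbouring lines that involve DU145, and the splits of a further gene list, are given from both repeats only.

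The 250 bases before the RefSeq start of transcription (GRCh38.p14) were available for 34 of the 39 genes. Those of 4 genes are printed 5′ to 3′ because each had the largest called increase of a line or of a pair of lines described below: BARD1 in LNCaP, MDC1 in DUCAP and VCAP, FANCA in DU145, and TP53BP1 in PC3. Capitals mark the CCAAT box or an E2F-type motif on either strand. 
BARD1, chr2:214809684-214809933, minus strand: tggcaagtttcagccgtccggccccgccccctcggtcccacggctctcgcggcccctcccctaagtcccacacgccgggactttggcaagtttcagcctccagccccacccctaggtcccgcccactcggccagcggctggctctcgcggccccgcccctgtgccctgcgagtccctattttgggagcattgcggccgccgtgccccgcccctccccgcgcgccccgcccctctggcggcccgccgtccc
MDC1, chr6:30717282-30717531, minus strand: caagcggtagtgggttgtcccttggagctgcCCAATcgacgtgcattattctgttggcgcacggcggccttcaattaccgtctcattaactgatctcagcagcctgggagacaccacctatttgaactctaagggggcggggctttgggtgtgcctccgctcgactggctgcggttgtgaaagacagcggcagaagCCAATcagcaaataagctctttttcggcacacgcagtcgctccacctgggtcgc
FANCA, chr16:89816648-89816897, minus strand: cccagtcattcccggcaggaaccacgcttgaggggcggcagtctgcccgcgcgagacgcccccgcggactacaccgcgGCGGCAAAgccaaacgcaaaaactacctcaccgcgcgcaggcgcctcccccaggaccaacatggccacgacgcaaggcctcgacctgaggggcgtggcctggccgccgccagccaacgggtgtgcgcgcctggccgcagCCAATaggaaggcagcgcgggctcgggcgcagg
TP53BP1, chr15:43510641-43510890, minus strand: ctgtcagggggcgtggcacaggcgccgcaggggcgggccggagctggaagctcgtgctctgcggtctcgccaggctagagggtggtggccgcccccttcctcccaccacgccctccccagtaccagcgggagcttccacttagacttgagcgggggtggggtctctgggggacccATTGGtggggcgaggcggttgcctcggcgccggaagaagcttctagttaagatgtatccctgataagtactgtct

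The window listed first was searched for each gene, and 10 of the 39 genes have further windows in the table. On both strands, CCAAT was found in 15 of the 34 windows (44.1%), against 33% of the first windows of all 27305 genes and 35.1% of those of tested genes. An E2F-type motif (TTTCCCGC, TTTCGCGC, TTTGCCGC or TTTGGCGC) was found in 2 of 34 (5.88%), against 2.79% of all first windows and 4.35% of those of 11536 tested genes. The cell cycle element TTTGAA or TTCGAA was found in 4 of 34 (11.8%), below the 14.6% of all first windows and above the 9.5% of those of tested genes. The E2F-type matches were in FANCA and FANCC. Of the printed windows, that of BARD1 held no CCAAT or E2F-type letters, that of MDC1 held CCAAT at 2 places, that of TP53BP1 at 1 and that of FANCA at 1, beside its E2F-type motif. The cell cycle element, which is not marked in the letters, was in that of MDC1 and in no other printed window. For comparison, the 19 windows available for the proliferation list held CCAAT in 84.2%, an E2F-type motif in 31.6% and the cell cycle element in 36.8%. A match is a description of the letters and not a site.

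The levels spread over more than 2 orders of magnitude on the TPM scale. The Ku proteins XRCC6 (157 to 458 TPM) and XRCC5 (154 to 281 TPM), which hold broken ends for joining, had the highest values of the group, together with the break sensor PARP1 (86.3 to 202 TPM). FANCF, LIG4, RAD51B, BRIP1 and FANCM fell below 2 TPM in at least 1 sample, with 1.21 TPM of FANCF in PC3 as the lowest value of the group. Levels were compared between lines on the log2(TPM + 1) scale with limma, in which the 5 lines shared 1 estimate of the spread between repeats. By the F-test over the 5 lines, 29 of the 39 genes differed at an adjusted p under 0.05, or 74.4%, whereas 90.8% of the 17520 genes tested did. The line means of 26 genes (66.7%) spanned at least 1 on the log2 scale, against 83.1% of all tested genes, and the median span was 1.23, against 1.69. The spans ran from 0.41 for the nuclease MRE11 to 2.85 for BARD1. The 10 genes that did not pass were ATR, BRCA1, BRCA2, XRCC2, MRE11, CHEK1, FANCD2, FANCI, XRCC5 and BLM. That list depended on the scaling of the TPM. On both tables rescaled as described below, by median ratio and by quantiles, 6 of the 10 passed (BLM, BRCA1, CHEK1, FANCD2, MRE11 and XRCC2). BRCA2 and FANCI passed on 1, and ATR and XRCC5 on neither. Of the 29 that had passed, 3 lost the call on both, PARP1, PARP2 and RAD51C. A further 4, BRIP1, FANCE, FANCM and XRCC6, lost it on 1. In bulk RNA a lower value cannot tell fewer expressing cells from less RNA per cell.

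**Figure D1:**
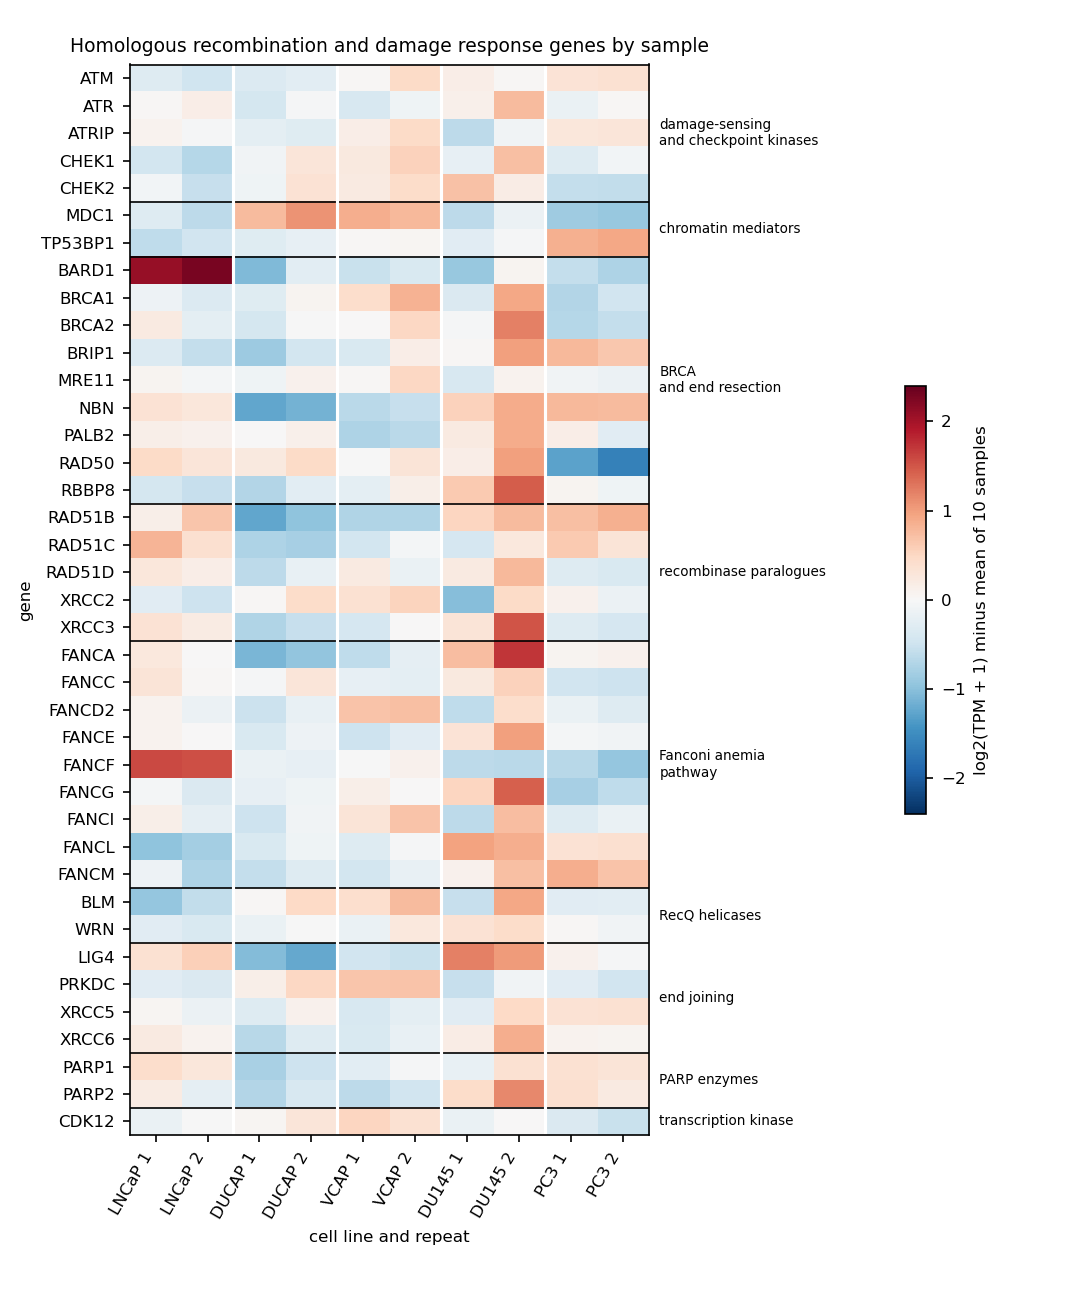
Level of each of the 39 genes in each of the 10 samples, as log2(TPM + 1) minus the gene's mean over the samples (red above, blue below), ordered by role on the vertical axis and by line and repeat on the horizontal axis. BARD1 and FANCF stand out in LNCaP, RAD50 is low in both PC3 samples, and DU145 repeat 2 is redder than repeat 1.

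Among the BRCA and end resection genes, BARD1, the partner of BRCA1 in its ubiquitin ligase, gave the widest span (chr2:214725646-214809683). BARD1 was at 44.5 and 50.6 TPM in LNCaP, 4.64 and 10.1 in DU145, 6.29 and 7.22 in VCAP, 4.06 and 7.9 in DUCAP, and 6.12 and 5.38 in PC3. Both LNCaP samples lay above all 8 others, and LNCaP minus the average of the 4 remaining line means was 2.74 ± 0.27 (SE) on the log2 scale (limma, adjusted p = 5.73e-05). Differences of a line below are of the same kind. The other 4 lines overlapped, and no step between neighbours in the order of their means passed the test (limma, adjusted p of 0.64 to 1).

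BRCA1 itself, which acts as a dimer with BARD1, did not pass the F-test on the deposited values (limma, adjusted p = 0.0799), but passed without mitochondrial transcripts and on both rescaled tables (limma, adjusted p of 0.0084 to 0.018). It was at 23.7 and 32.2 TPM in VCAP, 13.6 and 34.1 in DU145, 14.2 and 18.4 in DUCAP, 16.1 and 13.7 in LNCaP, and 10.4 and 12.4 in PC3. In LNCaP, where BARD1 was high, BRCA1 lay inside the range of the other lines. VCAP was above the mean of the others, with a difference of 0.78 ± 0.29 (SE, limma, adjusted p = 0.044), a call that was lost when any 1 sample of LNCaP, DUCAP, VCAP or PC3 was left out, and DU145 repeat 2 was higher than both VCAP samples.

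RAD50, the coiled-coil ATPase that bridges broken ends, was low in PC3 (chr5:132556977-132646349). It was at 18.7 and 33.8 TPM in DU145, 23.4 and 20.7 in LNCaP, 19.9 and 23.3 in DUCAP cells, 16.5 and 21.04 in VCAP, and 6.3 and 4.77 in PC3. Both PC3 samples lay below all others, with a difference of −1.81 ± 0.22 (SE) on the log2 scale (limma, adjusted p = 0.000124), and no step between neighbours among the other 4 lines passed the test. NBN, the third subunit of the same complex, followed another order. It was at 32.2 and 31.8 TPM in PC3, 27.3 and 34.8 in DU145, 23.7 and 22.6 in LNCaP, 11.3 and 12.3 in VCAP, and 7.14 and 7.87 in DUCAP. DUCAP was below all other samples, with a difference of −1.49 ± 0.12 (SE, limma, adjusted p = 1.84e-05), and PC3, which was lowest in RAD50, had the highest mean of NBN, without a difference from DU145 that passed the test (limma, adjusted p = 0.809). MRE11, the nuclease of the complex, stayed between 9.37 and 18.1 TPM in all samples. It did not pass the F-test on the deposited values (limma, adjusted p = 0.408). Without mitochondrial transcripts and on both rescaled tables MRE11 passed (limma, adjusted p of 0.0029 to 0.024).

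RBBP8, also called CtIP, starts the resection of ends. It was at 41.5 and 74.5 TPM in DU145, 27.8 and 24.8 in PC3, 22.4 and 29.6 in VCAP, 16.1 and 22.2 in DUCAP, and 19.5 and 17.9 in LNCaP. DU145 was above every other sample, with a difference of 1.29 ± 0.22 (SE, limma, adjusted p = 0.00113), although its repeats themselves lay far apart. PALB2, the bridge between BRCA1 and BRCA2, was at 6.28 and 10.7 TPM in DU145, 5.88 and 5.75 in LNCaP, 5.29 and 5.83 in DUCAP cells, 6.02 and 4.19 in PC3, and 2.74 and 2.98 in VCAP. Both VCAP samples were below all others, with a difference of −0.87 ± 0.19 (SE, limma, adjusted p = 0.00436). BRCA2, which carries the recombinase to single-stranded DNA, was at 3.92 and 10.7 TPM in DU145, 4.09 and 6.05 in VCAP, 4.87 and 3.3 in LNCaP, 2.77 and 4.01 in DUCAP cells, and 2.11 and 2.37 in PC3. Its highest value was again DU145 repeat 2. The F-test was not passed (limma, adjusted p = 0.101), and the difference of PC3 from the other lines, −0.79 ± 0.31 (SE, limma, adjusted p = 0.0472), was lost when any sample of LNCaP, DUCAP, VCAP or PC3 was left out.

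**Figure D2:**
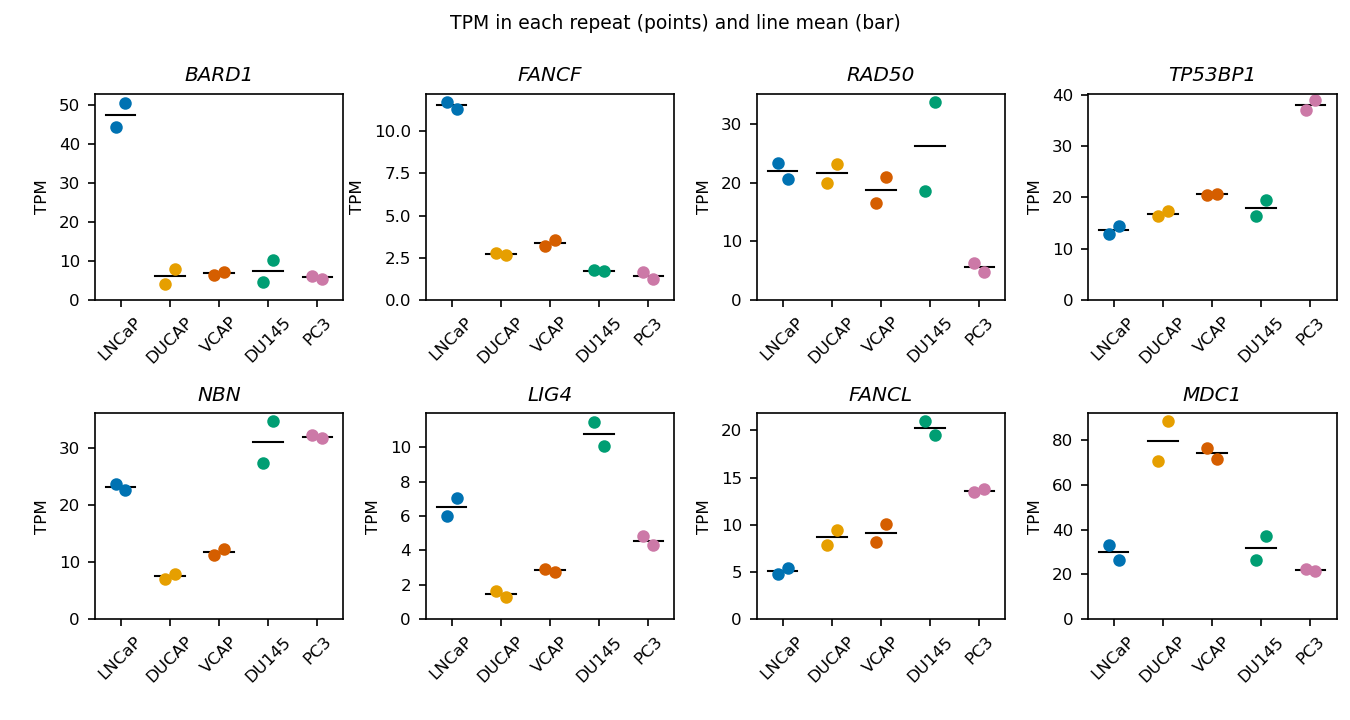
TPM of 8 genes with wide spans in each repeat (points) and the mean of each line (bar), with a linear axis from 0 in every panel. BARD1 and FANCF are high in LNCaP only among these lines, RAD50 is low and TP53BP1 high in PC3, and MDC1 is high in DUCAP and VCAP.

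The recombinase paralogues form complexes that help the filament on single-stranded DNA. RAD51B was at 8.85 and 9.83 TPM in PC3, 7.53 and 9.07 in DU145, 5.62 and 8.5 in LNCaP, 2.63 and 2.63 in VCAP, and 1.51 and 2.04 in DUCAP. It split the lines into 3 with high and 2 with low levels: LNCaP, the lowest of the first, was above VCAP (limma, adjusted p = 0.00178), and the steps within each set did not pass the test (limma, adjusted p of 0.24 to 0.58). RAD51C, its partner in one complex, ranged from 24.5 to 76.8 TPM with the DUCAP samples below all others, with a difference of −0.96 ± 0.20 (SE, limma, adjusted p = 0.00326). This call was lost on both rescaled tables, which are described below. XRCC3 was at 25.9 and 61 TPM in DU145, 26.6 and 23.7 in LNCaP, 15.3 and 20.9 in VCAP, 16.5 and 15.4 in PC3, and 12.1 and 13.8 in DUCAP. DU145 repeat 2 had more than any other sample and repeat 1 lay within the range of LNCaP, and no step in the order of the line means passed the test (limma, adjusted p of 0.14 to 0.72). XRCC3 shares 3928 bases of its locus with KLC1 (26.3 to 115 TPM), and whether the counting used strand is not given in the sources used here. RAD51D and XRCC2 stayed between 2.76 and 11.6 TPM.

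Both chromatin mediators, scaffolds that gather repair proteins at marked chromatin, passed the F-test, with unlike orders of the lines. MDC1, which reads phosphorylated histone H2AX, was at 70.5 and 88.7 TPM in DUCAP cells, 76.4 and 71.7 in VCAP, 26.6 and 37.4 in DU145, 33.2 and 26.6 in LNCaP, and 22.6 and 21.7 in PC3. All 4 DUCAP and VCAP samples were above the other 6, and VCAP, the lower of the pair by mean, was above DU145 (limma, adjusted p = 0.000744). TP53BP1, which limits resection and favors end joining, was at 37.1 and 38.99 TPM in PC3, 20.4 and 20.7 in VCAP, 16.4 and 19.5 in DU145, 16.3 and 17.4 in DUCAP, and 12.8 and 14.3 in LNCaP (chr15:43403061-43510640). Both PC3 samples were above all others, with a difference of 1.11 ± 0.11 (SE) on the log2 scale (limma, adjusted p = 4.03e-05). Both LNCaP samples were below all others, with a difference of −0.67 ± 0.11 (SE, limma, adjusted p = 0.000931). TP53BP1 overlaps TUBGCP4 (8.30 to 26.9 TPM) by 6711 bases.

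The damage-sensing and checkpoint kinases had spans of 0.66 (ATRIP) to 1.03 (CHEK2) on the log2 scale. ATM, the kinase that answers double-strand breaks, was at 19.5 and 20.1 TPM in PC3, 15.6 and 21.3 in VCAP, 17.2 and 15.7 in DU145, 11.9 and 12.7 in DUCAP, and 12.2 and 10.8 in LNCaP. Its line means spanned 0.74 on the log2 scale (limma F-test, adjusted p = 0.01003), and no step in the order of the lines passed the test (limma, adjusted p of 0.073 to 0.67). CHEK2, the kinase that ATM activates, was at 38.1 and 26.1 TPM in DU145, 26.8 and 31.5 in VCAP, 21.1 and 29.3 in DUCAP, 21.8 and 15.2 in LNCaP, and 15.04 and 14.9 in PC3. Both PC3 samples were below all others, with a difference of −0.73 ± 0.19 (SE, limma, adjusted p = 0.0103), a call lost without either of them. It was also one of 5 genes with less in DU145 repeat 2 than in repeat 1. ATR and CHEK1, which answer stalled replication forks, did not pass the F-test on the deposited values (limma, adjusted p = 0.123 and 0.0736). CHEK1 passed without mitochondrial transcripts and on both rescaled tables (limma, adjusted p of 0.0030 to 0.011). ATRIP, the partner of ATR, stayed between 5.46 and 12.6 TPM.

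The Fanconi anemia group held the second gene that was high in LNCaP alone among these lines. FANCF, an adaptor of the core complex, was at 11.7 and 11.4 TPM in LNCaP, 3.2 and 3.56 in VCAP, 2.79 and 2.67 in DUCAP, 1.74 and 1.69 in DU145, and 1.66 and 1.21 in PC3 (chr11:22622533-22625823). Both LNCaP samples were above all others, with a difference of 1.96 ± 0.12 (SE) on the log2 scale (limma, adjusted p = 4.02e-06). DUCAP was also above DU145 (limma, adjusted p = 0.0258). FANCL, the ubiquitin ligase of the core complex, ran the other way. It was at 21.02 and 19.6 TPM in DU145, 13.4 and 13.8 in PC3, 8.13 and 10.1 in VCAP, 7.81 and 9.5 in DUCAP, and 4.8 and 5.39 in LNCaP. LNCaP was below DUCAP (limma, adjusted p = 0.00776), PC3 was above VCAP (limma, adjusted p = 0.0184) and DU145 was above PC3 (limma, adjusted p = 0.0238). The step from VCAP to DUCAP did not pass the test (limma, adjusted p = 0.872). FANCL overlaps VRK2 (4.16 to 29.8 TPM) by 678 bases.

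FANCA, a further core subunit, was at 18.9 and 38.3 TPM in DU145, 13.2 and 10.9 in LNCaP, 11.4 and 11.7 in PC3, 6.78 and 9.24 in VCAP, and 4.57 and 5.18 in DUCAP (chr16:89737549-89816647). Both DU145 samples were above all others, with a difference of 1.54 ± 0.24 (SE, limma, adjusted p = 0.000623), and both DUCAP samples were below all others, with a difference of −1.28 ± 0.24 (SE, limma, adjusted p = 0.00167), the latter not after quantile normalization. FANCA overlaps ZNF276 (2.31 to 46.1 TPM) by 3377 bases. FANCG, which binds FANCA, was at 40.5 and 78.1 TPM in DU145, 30.96 and 28.2 in VCAP, 24.3 and 26.1 in DUCAP, 27.3 and 21.8 in LNCaP, and 15.8 and 18.1 in PC3. It shared the high place of DU145, with a difference of 1.22 ± 0.22 (SE, limma, adjusted p = 0.00136), while PC3 was below all others, with a difference of −0.88 ± 0.22 (SE, limma, adjusted p = 0.00699), which was lost without PC3 repeat 1. FANCD2, which the core complex ubiquitinates, was at 27.2 and 27.9 TPM in VCAP, 10.5 and 22.5 in DU145, 17.6 and 14.8 in LNCaP, 14.7 and 13.1 in PC3, and 11.2 and 14.4 in DUCAP. Both VCAP samples were above all others, with a difference of 0.88 ± 0.24 (SE, limma, adjusted p = 0.0117), though the call was lost without either VCAP sample and the F-test over all lines was not passed (limma, adjusted p = 0.0563). FANCC, FANCE, FANCI and FANCM stayed between 1.95 and 57.8 TPM, and FANCI did not pass the F-test.

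In end joining, LIG4, the ligase that seals the break, gave a complete order of the lines. It was at 11.5 and 10.1 TPM in DU145, 5.98 and 7.07 in LNCaP, 4.85 and 4.29 in PC3, 2.93 and 2.76 in VCAP, and 1.63 and 1.31 in DUCAP. Each line was above the next, with limma adjusted p-values of 0.00907, 0.048, 0.0177 and 0.0284, and no samples of neighbouring lines overlapped. The step from VCAP to DUCAP lost its call on both rescaled tables and without any 1 sample of these lines. PRKDC, the catalytic subunit of DNA-dependent protein kinase, was at 77.6 and 78.5 TPM in VCAP, 53.6 and 68.8 in DUCAP, 32.99 and 46.2 in DU145, 40.4 and 38.3 in LNCaP, and 40.1 and 35.4 in PC3. Here both VCAP samples were above all others, with a difference of 0.83 ± 0.15 (SE, limma, adjusted p = 0.0014), so the kinase was high in a line in which the ligase was low. XRCC6 had a span of 1.01 on the log2 scale and XRCC5 one of 0.66, and XRCC5 did not pass the F-test (limma, adjusted p = 0.181). Of the RecQ helicases, which unwind recombination intermediates, BLM was at 9.21 and 12.03 TPM in VCAP, 4.21 and 13.6 in DU145, 6.82 and 9.65 in DUCAP, 5.37 and 5.4 in PC3, and 3.02 and 4.13 in LNCaP. LNCaP was below all other samples, with a difference of −0.95 ± 0.34 (SE, limma, adjusted p = 0.0373), but BLM did not pass the F-test and this call was lost without either LNCaP sample. WRN stayed between 6.55 and 12.3 TPM.

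The PARP enzymes, which add poly(ADP-ribose) at breaks and are the targets of PARP inhibitors, were above 18 TPM in all samples. PARP1 was at 202 and 180.1 TPM in LNCaP, 194 and 185 in PC3, 132 and 193 in DU145, 126 and 147 in VCAP, and 86.3 and 105 in DUCAP. Both DUCAP samples were below all others, with a difference of −0.80 ± 0.15 (SE, limma, adjusted p = 0.00198), a call lost on both rescaled tables, and no step in the order of the lines passed the test (limma, adjusted p of 0.11 to 0.98). PARP2 was at 42.2 and 69.7 TPM in DU145, 40.1 and 35.6 in PC3, 35.2 and 26.3 in LNCaP, 19.5 and 22.1 in VCAP, and 18.4 and 23.3 in DUCAP. Both DU145 samples were above all others, with a difference of 1.00 ± 0.20 (SE, limma, adjusted p = 0.00248). CDK12, a kinase of RNA polymerase II known for keeping long repair genes expressed, was at 45.4 and 40.8 TPM in VCAP, 32.3 and 38.5 in DUCAP, 27.8 and 31.4 in DU145, 27.9 and 31.2 in LNCaP, and 24.2 and 21.2 in PC3. VCAP was above all other samples, with a difference of 0.56 ± 0.12 (SE, limma, adjusted p = 0.00368), and PC3 below all others, with a difference of −0.56 ± 0.12 (SE, limma, adjusted p = 0.00319), the latter lost without PC3 repeat 2.

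Each line was then compared with the mean of the other 4 over the whole group. Since TPM are shares, 2 rescaled tables were fitted beside the deposited values, one divided by the median ratio of each sample to a reference and one quantile-normalized. They moved the median difference of all tested genes from between −0.54 and 0.26 to between −0.11 and −0.02. They also changed the balance of the calls, so their splits stand beside each count, with the shares of all tested genes. Counts without mitochondrial transcripts or without a sample are given without such a share. The 5 comparisons share samples and are not independent. A single high or low line shifts the mean it enters, so a call need not place a line at an end of the order.

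In DU145, 18 of the 39 genes were higher and 4 lower (limma, adjusted p under 0.05), against 40.7% and 22.3% of all tested genes. The median difference was 0.49 on the log2 scale, against 0.23 for all tested genes. Those higher came from most roles, among them the core subunits FANCA, FANCG, FANCL and FANCE, the paralogues RAD51B, RAD51D and XRCC3, RBBP8, PALB2, RAD50 and NBN, LIG4 and PARP2. The 4 lower were FANCF, MDC1, ATRIP and PRKDC. Not all of these set DU145 below each other line. In MDC1 its mean lay above those of LNCaP and PC3. In PRKDC the steps from LNCaP to DU145 and from DU145 to PC3 did not pass the test (limma, adjusted p = 0.978 and 0.863). For FANCF the mean of the others includes the high LNCaP, and no alternative left out both LNCaP samples. The median-ratio table gave 10 higher and 8 lower, against 30.3% and 32.1% of all tested genes. The quantile-normalized one gave 9 and 8, against 28.3% and 35.2%. Without repeat 1 of DU145 there were 26 higher and 1 lower, and without repeat 2 there were 11 higher and 8 lower. Of the 22 calls, 9 held under every alternative run apart from a required log2 difference of at least 1. They were FANCA, FANCG, FANCL, LIG4, NBN, PARP2, RBBP8 and XRCC3, all higher, and FANCF, lower, and 7 of them, all but NBN and FANCF, also differed by at least 1. Calls described below as stable held under the same set of alternatives, the required difference aside.

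In PC3, 9 genes were higher and 10 lower, against 43.2% and 24.7% of all tested genes, with a median difference of −0.08, against 0.26. The stable calls were TP53BP1, NBN and RAD51B, higher, and RAD50, MDC1 and FANCF, lower, of which NBN and RAD51B differed by less than 1. The rescaled tables gave 4 higher and 17 lower by median ratio, against 31.8% and 33.9% of all tested genes. By quantiles they gave 3 and 21, against 29.5% and 35.9%. With repeat 1 of PC3 left out 9 genes were called, and with repeat 2 left out 8.

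In LNCaP, 7 genes were higher and 8 lower, against 38.2% and 24.2% of all tested genes, with a median difference of −0.01, against 0.18. The stable calls were BARD1 and FANCF, higher, and FANCL and TP53BP1, lower, of which TP53BP1 differed by less than 1. The other 5 that were higher, RAD51C, LIG4, RAD51B, PARP1 and NBN, lost the call under at least 1 rescaling. By median ratio 2 genes were higher and 13 lower, against 27.8% and 32.4% of all tested genes. By quantiles 4 were higher and 12 lower, against 29.9% and 31.0%. Leaving out repeat 1 of LNCaP left 9 calls and leaving out repeat 2 left 5.

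In DUCAP, 2 genes were higher and 16 lower, against 11.1% and 57.7% of all tested genes, with a median of −0.30, against −0.54. The balance turned with the scaling, to 14 higher and 4 lower by median ratio, against 26.0% and 34.0% of all tested genes. By quantiles it was 16 and 3, against 28.4% and 30.7%. Without mitochondrial transcripts in the total it was 5 and 8. The mitochondrial share of the TPM was 35.5 and 32.1% in the DUCAP repeats. The stable calls were MDC1, higher, and NBN, LIG4 and RAD51B, lower, each with a difference of at least 1. The number of calls fell to 8 without repeat 1 of DUCAP, and to 11 without repeat 1 of LNCaP or repeat 1 of PC3.

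In VCAP, 5 genes were higher and 6 lower, against 17.3% and 46.6% of all tested genes, with a median of 0.03, against −0.36. The rescaled tables each gave 17 higher and 3 lower. Of all tested genes, 27.8% were higher and 33.1% lower by median ratio, and 28.7% and 32.9% by quantiles. Without mitochondrial transcripts, which held 36.0 and 34.5% of the TPM in the VCAP repeats, there were 13 and 4. The stable calls were MDC1, PRKDC and CDK12, higher, and PALB2, NBN and RAD51B, lower, of which MDC1 alone differed by at least 1. Without repeat 1 of DU145 21 genes were called, without repeat 2 of DU145 18, without both 20, and without repeat 2 of VCAP 7.

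**Figure D3:**
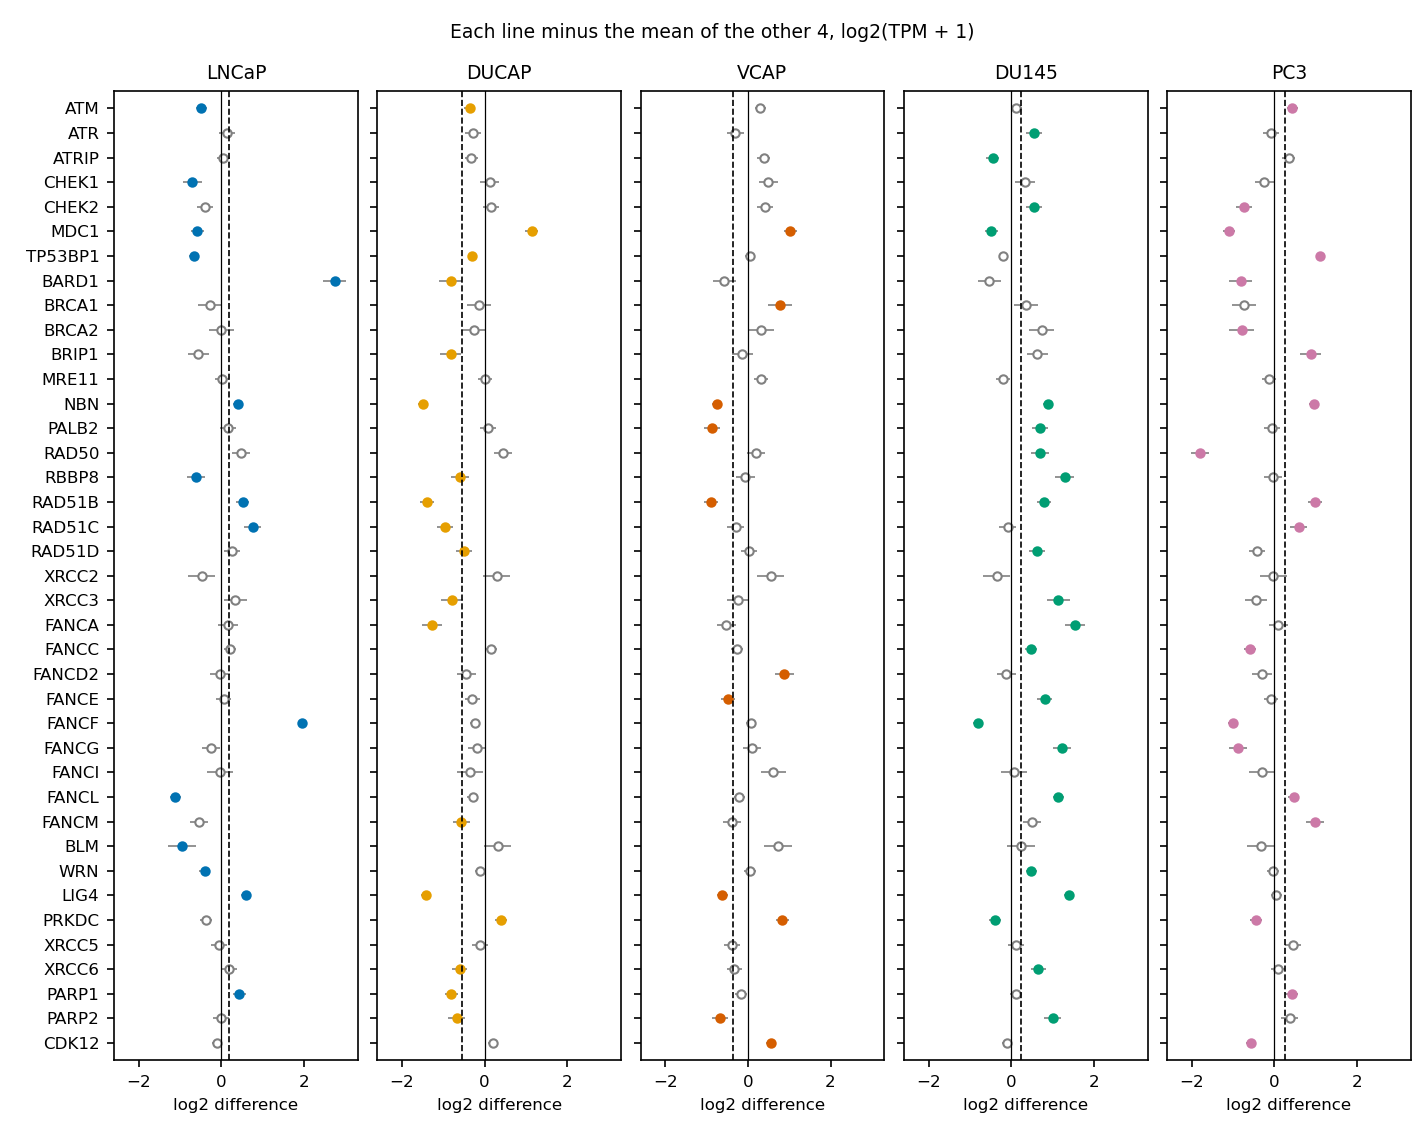
Difference of each line from the mean of the other 4 lines on the log2(TPM + 1) scale for the 39 genes (points, with SE bars; filled points have an adjusted p under 0.05 by limma), beside 0 (solid line) and the median of all 17520 tested genes (dashed line). The points of DU145 lie mostly to the right of 0 and those of DUCAP mostly to the left, where the dashed line of DUCAP also lies.

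DUCAP and VCAP, the ERG-expressing lines, differed in 3 genes. By limma, 0 of the 39 genes were higher in DUCAP and 3 lower at an adjusted p under 0.05, against 4.24% and 14% of all tested genes. At an unadjusted p under 0.05, 1 was higher and 6 were lower. FANCD2 differed by −1.06 ± 0.30 (SE, limma, adjusted p = 0.045), LIG4 by −0.64 ± 0.16 (SE, limma, adjusted p = 0.0284) and NBN by −0.59 ± 0.15 (SE, limma, adjusted p = 0.0292). Samples of the 2 lines did not overlap in 23 of the 39 genes, these 3 among them, so this does not set them apart. The share over all tested genes was not computed, and none of the calls was stable. The number of calls was 10 without either DU145 sample or without both, 1 without either sample of LNCaP or PC3 or without repeat 1 of VCAP, and 0 without repeat 2 of VCAP or either sample of DUCAP. By median ratio 2 genes were higher and none lower, and by quantiles 1 was higher.

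DU145 and PC3, the lines with part of the luminal markers below 1 TPM, differed in more genes. Of the 39, 12 were higher in DU145 and 2 in PC3, against 23.8% and 25.5% of all tested genes, with a median difference of 0.45, against 0. RAD50 was higher in DU145, with a difference of 2.01 ± 0.27 (SE, limma, adjusted p = 0.000458) and FANCG, with one of 1.68 ± 0.27 (SE, limma, adjusted p = 0.00128). TP53BP1, the largest difference towards PC3, was at −1.05 ± 0.14 (SE, limma, adjusted p = 0.000406), and ATRIP was the other gene higher in PC3. The stable calls were RAD50, FANCG, LIG4, CHEK2, FANCC and TP53BP1, of which FANCC differed by less than 1. By median ratio 16 genes were higher and 2 lower, and by quantiles 15 and 1. Without repeat 1 of DU145 the split was 21 and 1, without repeat 2 it was 8 and 6, and 7 genes were called without repeat 1 of PC3 and 6 without repeat 2.

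The repeats of each line were compared gene by gene, with no test since each side is 1 sample. In DU145, 34 of the 39 genes were higher in repeat 2, with a median difference of 0.65 on the log2 scale, against 0 for all tested genes. On this scale 7 were at least 2-fold higher, and none of the 39 was 2-fold higher in repeat 1, whereas 3.78% of all tested genes were 2-fold higher in repeat 2 and 5.7% in repeat 1. The 7 were BLM, XRCC2, FANCI, BRCA1, BRCA2, XRCC3 and FANCD2. In TPM without a pseudocount 10 were at least 2-fold higher, with BARD1, BRIP1 and FANCA added, against 7.23% of all tested genes. The 7 span helicase, paralogue, Fanconi and BRCA roles, and 6 of them were among the genes that did not pass the F-test on the deposited values. The F-test counts the same difference between repeats as spread, so this overlap is not a separate result. BRCA1 went from 13.6 to 34.1 TPM, BRCA2 from 3.92 to 10.7 TPM and BLM from 4.21 to 13.6 TPM.

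The 24 genes of the proliferation list were all higher in DU145 repeat 2, 21 of them at least 2-fold, with a median of 1.22. Their part in the difference of the recombination genes was not tested. Of the 10 genes at least 2-fold higher in TPM, 9 had a promoter window, of which 1 held an E2F-type motif (FANCA), 1 the cell cycle element (BRIP1) and 4 CCAAT. BRCA1 has 1 further listed window, at a later start, which held CCAAT and neither of the other motifs. The mitochondrial share also differed between these repeats, at 22.5% in repeat 1 and 15.3% in repeat 2, and without mitochondrial transcripts in the total 6 genes were at least 2-fold higher on the log2(TPM + 1) scale.

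In the other lines no gene of the group differed 2-fold between repeats, with or without the pseudocount. With it, the share of all tested genes was 0.942% in LNCaP, 0.902% in DUCAP, 2.12% in VCAP and 0.993% in PC3. In DUCAP 35 of 39 and in VCAP 32 of 39 were higher in repeat 2, against 64.3% and 48.9% of all tested genes, with medians of 0.29 and 0.23, against 0.095 and 0. The proliferation list moved the same way, with medians of 0.44 and 0.47. In LNCaP 8 of 39 and in PC3 14 of 39 were higher in repeat 2, or 20.5% and 35.9%, against 46.3% and 39.1% of all tested genes. The medians were −0.16 and −0.04, against 0 and −0.032, and the proliferation list had medians of −0.31 and −0.13.

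**Figure D4:**
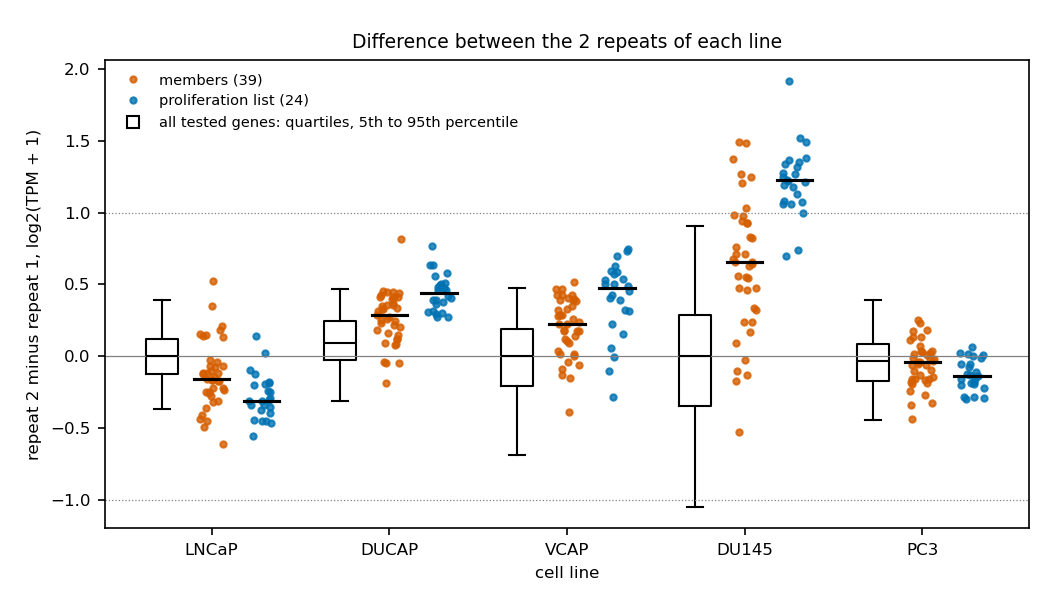
Repeat 2 minus repeat 1 of each line on the log2(TPM + 1) scale for the 39 recombination and damage response genes (orange points), the 24 proliferation genes (blue points) with their medians (bars), and all 17520 tested genes (box: quartiles; whiskers: 5th to 95th percentile); dotted lines mark a 2-fold difference. In DU145 the medians of both lists, 0.65 and 1.22, lie above 0, the median of all tested genes.

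A list of 75 further genes of the pathway was read beside the group, and 54 of them passed the F-test (72%), against 90.8% of all tested genes. In DU145 26 of the 75 were higher and 8 lower than the mean of the other lines, in PC3 23 and 9, in LNCaP 21 and 10, in VCAP 9 and 28, and in DUCAP 4 and 29. The shares of all tested genes are those given for each line above. By median ratio these splits became 14 and 18 in DU145, 11 and 24 in PC3, 10 and 22 in LNCaP, 25 and 16 in VCAP, and 23 and 11 in DUCAP, so the balance turned in every line. Among all tested genes the median-ratio table called 30.3% higher and 32.1% lower in DU145, 31.8% and 33.9% in PC3, 27.8% and 32.4% in LNCaP, 27.8% and 33.1% in VCAP, and 26% and 34% in DUCAP. FAAP20, a partner of the Fanconi core complex, had the widest span of the list, 3.78 on the log2 scale. It was at 160.1 and 149 TPM in PC3, 58.98 and 50.6 in DU145, 41.9 and 42.2 in LNCaP, 19.1 and 11.1 in VCAP, and 9.79 and 10.9 in DUCAP. RPA3, the smallest subunit of the complex that coats single-stranded DNA, was at 45.5 and 83.2 TPM in DU145, 63.5 and 52.5 in LNCaP, 39.6 and 44.1 in PC3, 6.46 and 9.85 in VCAP, and 5.43 and 8.09 in DUCAP. All 4 samples of DUCAP and VCAP were below the other 6. LIG3, the ligase of single-strand break repair, was at 109 and 119.5 TPM in VCAP, 93.1 and 105 in DUCAP, 40.3 and 40.2 in LNCaP, 16.3 and 23.9 in DU145, and 13.7 and 16.5 in PC3. In LIG3 those same 4 samples were above all others, as was also seen for MDC1, PRKDC and CDK12 in the group.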

How the data were processed

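Bulk RNA-seq was measured in 10 samples, 2 biological repeats of each of 5 untreated lines, grouped by the deposited labels. The sample titles also carry a number after the line name, which the labels do not explain. In DU145 and PC3 it does not always match the repeat number, and the repeat number was used. The authors trimmed the reads of strand-specific polyA libraries with Trim Galore 0.6.5 after FastQC 0.11.9, aligned them with STAR 2.7.2b to GRCh38, quantified genes with RSEM 1.3.3 and deposited the TPM per gene symbol, versions per the submitters' processing notes. The strand setting of the counting, and how values of 1 symbol were merged, are not given in the sources used here. TPM keep no depth, so precision rests on the repeats.

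The 17520 symbols that reached 1 TPM in at least 2 samples were fitted on the log2(TPM + 1) scale by limma 3.58.1 (R 4.3.3) with a coefficient for each line and a mean-variance trend, and p-values were adjusted by Benjamini-Hochberg over all of them at 0.05. A fold change on this scale understates that of low genes. The script was tested on simulated data. The genes given in every sample were the 12 with the widest spans of line means among those called by the F-test, the 2 largest called increases and decreases of each line without overlap, and 8 genes used with PARP inhibitors, 24 in all, and from the list of 75 the 3 widest called spans. The 4 printed sequences were chosen after the values were seen. The members and lists were chosen with earlier results of these data known. Upstream sequences, gene positions and overlaps are from RefSeq (GRCh38.p14), in which each of the 39 symbols matched. Results were recomputed with another pseudocount, filter, scaling and variance model, with the repeat number as a block, with a fold-change threshold and without each sample in turn, and, added after the data were seen, with both DU145 samples left out and with ratios of TPM without a pseudocount between repeats. Python 3.11.15, pandas 2.3.3, numpy 2.4.6 and matplotlib 3.10.9 were used.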

Additional observations from a re-analysis of the deposited data

How the results depend on the processing

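Across the alternatives for the single genes, a required log2 difference aside, 2342 values kept their direction and side of the threshold, 381 lost the call, 48 gained one and 13 turned sign. With a log2 difference of at least 1 also required, the number of genes called was 3 in LNCaP, 5 in DUCAP, 1 in VCAP, 7 in DU145 and 4 in PC3, each against the other lines, 1 for DUCAP against VCAP and 9 for DU145 against PC3. Without a filter on low values 10 were called in DUCAP. Without mitochondrial transcripts 17 were called in VCAP and 6 for DUCAP against VCAP. With median-ratio scaling 20 were called in VCAP, and with quantile normalization 20 in VCAP and 1 for DUCAP against VCAP. Without both DU145 samples 20 were called in VCAP and 10 for DUCAP against VCAP. Leaving out 1 sample at a time gave 5 to 22 in LNCaP, 8 to 23 in DUCAP, 7 to 21 in VCAP, 18 to 27 in DU145, 8 to 26 in PC3, 0 to 10 for DUCAP against VCAP, 6 to 22 for DU145 against PC3, and 24 to 37 by the F-test. The counts in this section stand without the share of all tested genes, so they cannot tell shifts of the group from shifts of all genes. The cause of these shifts was not tested.

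The signs that turned were those of ATM, RAD51D, RBBP8 and TP53BP1 in DUCAP, at 0.24, 0.055, 0.033 and 0.32 on the log2 scale with median-ratio scaling and at 0.29, 0.18, 0.052 and 0.35 with quantile normalization, that of XRCC6 in DUCAP, at 0.048 with median-ratio scaling, and that of FANCM in DUCAP, at 0.13 with quantile normalization. In PC3, quantile normalization turned ATM to −0.029, FANCL to −0.011 and PARP1 to −0.058. The deviations of samples with the same repeat number from their line means had a mean correlation of 0.00922 over the 10 pairs of lines. The correlations ran from −0.19 to 0.249, with 3 above 0.1. Whether samples with the same repeat number share a batch was not tested. With that number as a block, the F-test called 32 genes, and 15 were called in LNCaP, 15 in DUCAP, 12 in VCAP, 22 in DU145, 20 in PC3, 2 for DUCAP against VCAP and 15 for DU145 against PC3. With 2 repeats per line and no depth in TPM, small differences of low genes such as FANCF, LIG4 and BRCA2 rest on the spread between repeats alone.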
